A study of Mus musculus with 12 samples.

Results

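The dermal papilla genes are 10 genes that mark or serve the dermal papilla, the cluster of specialised fibroblasts at the base of the hair follicle: Corin, Alpl, Prom1, Sox2, Trps1, Crabp1, Vcan, Rspo2, Rspo3 and Hgf. Their probes were found by the accession that each array probe carries, and the genes were picked with earlier results of these data known. All 10 had probes and all 10 passed the filter on dim probes, among 17168 named genes and 25085 features tested. They were read by 15 probes, 3 for Trps1, 3 for Vcan, 2 for Prom1 and 1 for each of the other genes. The series is titled as a study of the hair follicle cycle. Gene expression was measured on 12 mouse arrays with 2 colours, with the sample in Cy5 and a pool of all conditions in Cy3 on every array. The arrays cover 2 genotypes, 2 days and 3 treatment levels, with 1 array for each combination and so no replicate of a combination.

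The groups are Eng+/- and wt, at 50 d or 90 d, with no named treatment, with clp or with tpa. Eng encodes endoglin, a co-receptor of the transforming growth factor beta family, and Eng+/- carries 1 altered copy. The sources used here do not say what the days count from, what clp and tpa stand for, how many animals or cultures gave each RNA, or which strain was used. Both wt samples without a named treatment have pool in their titles. Each treatment level was hybridised on a slide of its own, so slide and treatment cannot be told apart, while genotypes and days were compared within a slide. Nothing in the labels marks separate cultures or animals, so p-values measure the spread between these arrays. Since no combination has a replicate, that spread is how far the genotype difference varies over the combinations of treatment and day. A genotype difference that truly varies between them is counted as spread.

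The dermal papilla instructs the epithelium around it. In growing (anagen) follicles it sends R-spondins, which strengthen Wnt signalling, and growth factors such as Hgf to the matrix cells that build the hair shaft, and it lies in a matrix rich in versican. In resting follicles the papilla is small and many of these genes are less active, so the genes are used in mice both as markers of the papilla and as signs of the stage of the hair cycle.

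The labels call the material embryonic stem cells, and the array values were checked against that. Of 12 embryonic stem cell genes, 7 were well above background on all 12 arrays, Nanog and Esrrb among them. Pou5f1 was above it on 1 array and Zfp42 on 0, so genes of such cells went both ways. By the same measure, 16 of 17 hair shaft and inner root sheath genes were above background on all 12 arrays and 15 of the 17 saturated on at least 1 array. The median Cy5 signal was 166.5 to 573 scanner units per array, and 65.67% to 77.68% of spots were well above background in Cy5. The log2 ratio of Eng itself was -1.43 to 0.93 on the Eng+/- arrays and -1.13 to 1.92 on the wt arrays. Eng was lower in Eng+/- in 5 of 6 pairs, and in the tpa 50 d pair it was 0.63 higher in the library labelled Eng+/-. The difference over the 6 pairs was -0.75 ± 0.27 (SE), with an adjusted p of 0.534 in limma, and without the tpa 50 d pair it was -1.03 (adjusted p 0.336). The sources used here do not place the Eng probe relative to the altered part of the gene. The Eng+/- array with no named treatment at 90 d also stood apart: over all features its log2 ratios correlated at 0.69 to 0.78 with the other arrays of its treatment level and at 0.96 to 0.97 with both tpa 50 d arrays.

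Of the 10 genes, only Corin passed the test in any of the 7 comparisons of genotype, treatment and day. Corin rose with clp against no named treatment, 1.95-fold, while Alpl, Prom1, Sox2, Trps1, Crabp1, Vcan, Rspo2, Rspo3 and Hgf did not pass. This 1 of 10 stands beside 16.6% of all features tested that passed in that comparison, 9.77% higher and 6.83% lower, so the count of members is near the background. The median difference over the 10 genes was 0.02 on the log2 scale, against 0.01 over all features. A gene was called at a Benjamini-Hochberg adjusted p under 0.05 over all 25085 features, in a limma model of genotype and the 6 treatment-by-day conditions. The plot of log2 ratios by array shows every value of the 10 genes.

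**Figure D1:**
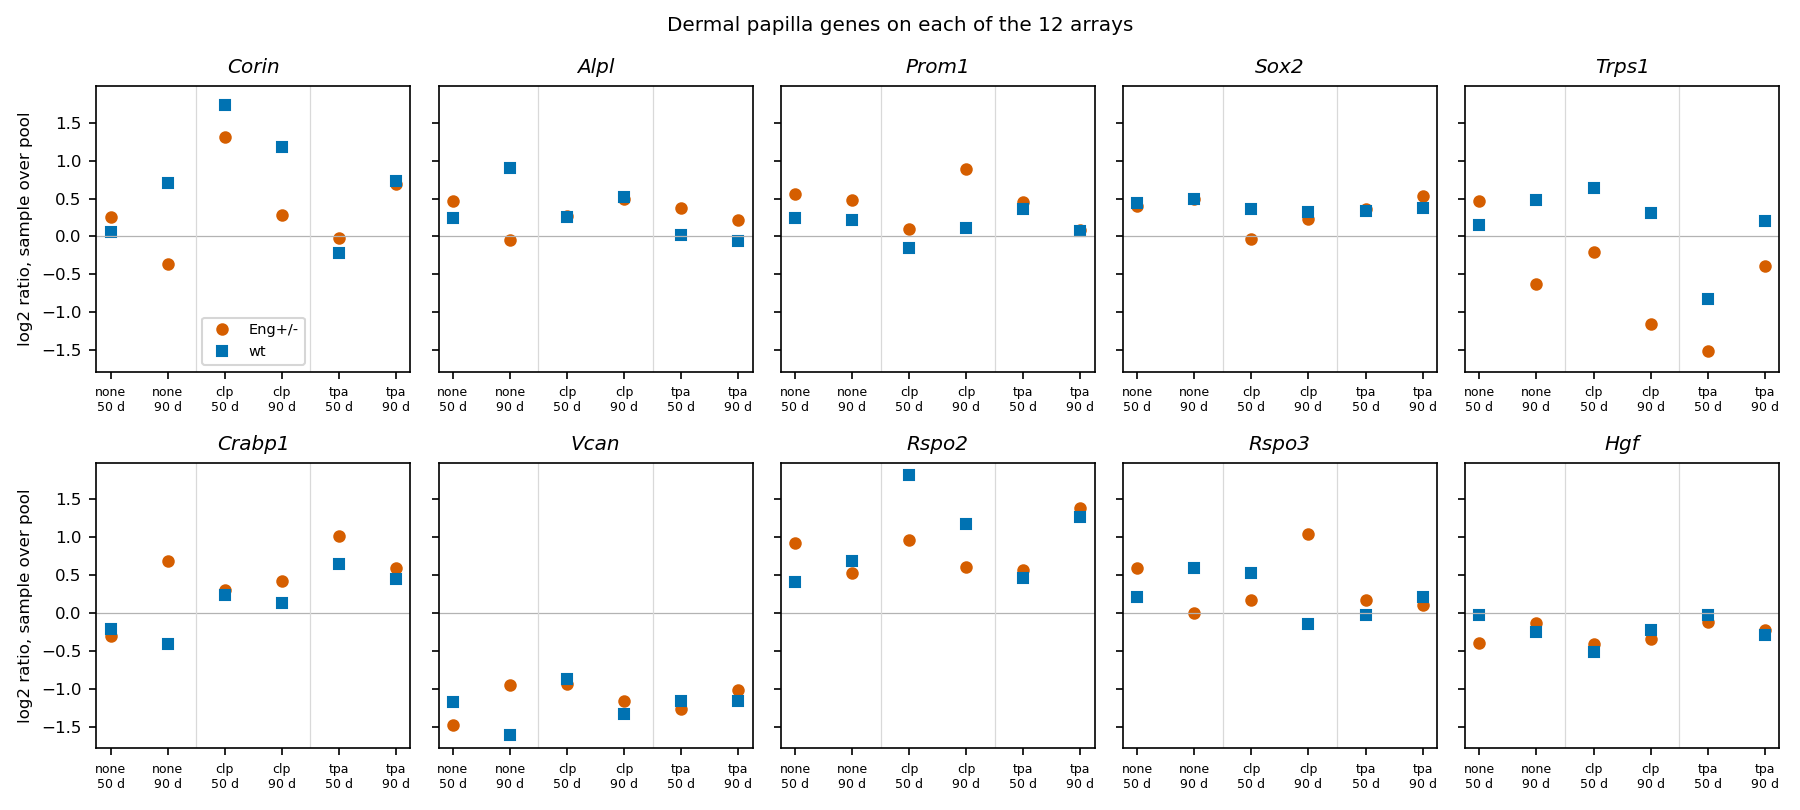
Each panel shows 1 gene, with the log2 ratio of sample over pool on the vertical axis, the 6 treatment-by-day conditions on the horizontal axis, circles for Eng+/- and squares for wt, 1 array a point. Corin is highest on the wt clp 50 d array at 1.73, whereas Sox2 and Hgf stay within narrow bands and the Trps1 points of Eng+/- lie below those of wt in 5 of 6 pairs.

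Corin is a membrane-bound serine protease that activates atrial natriuretic peptide and, in mouse dermal papilla, limits agouti signalling and so affects coat colour. In the clp arrays its log2 ratio was 1.32 in Eng+/- against 1.73 in wt at 50 d, then 0.28 against 1.18 at 90 d. Without a named treatment Eng+/- read 0.25 against 0.06 in wt at 50 d, then -0.37 against 0.71 at 90 d. Under tpa Eng+/- read -0.01 against -0.22 in wt at 50 d, then 0.69 against 0.73 at 90 d. The 3 highest arrays all carried clp, but the Eng+/- clp 90 d array lay among the others, so the groups overlapped. The difference of clp from no named treatment was 0.96 ± 0.23 on the log2 scale (SE, 95% interval 0.44 to 1.49, limma adjusted p 0.0298), higher in 4 of 4 matched pairs. Against tpa the difference was 0.83 ± 0.23, with an adjusted p of 0.0699 and 3 of 4 pairs higher. The Corin spot is dim, with a median Cy5 signal of 180.75 over the arrays and 11 of 12 arrays above background in Cy5. Its pool channel read 62 to 89 units and was also well above background on 11 of 12 arrays. The exception there was the wt clp 50 d array, which had the highest ratio, so the Corin ratios rest on a dim denominator. The added offset of 50 shrinks log ratios of dim spots. In the authors' processed signals, which carry no such offset, the difference of clp from no named treatment was 2.60 (limma adjusted p 0.0418). Those signals also differ in background and dye correction, and the part of the offset in this change was not tested.

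The call for Corin rests on few arrays. It was lost when any of 7 single arrays was left out, with differences of 0.80 to 1.13 and adjusted p between 0.0529 and 0.104, namely both arrays with no named treatment at 50 d, both clp 50 d arrays, the wt clp 90 d array and both tpa 90 d arrays. Leaving out either tpa 90 d array did not change the difference, 0.96, in which they take no part, but changed the spread estimated by the model. Without the Eng+/- array with no named treatment at 90 d it was 0.74 (adjusted p 0.0353), and without both tpa 50 d arrays 0.96 (adjusted p 0.042). It was also lost with median centring (1.36, adjusted p 0.0519) and with Cy5 alone (0.98, adjusted p 0.139).

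Among the genes of natriuretic and agouti signalling, 1 rose and 1 fell of 9 tested with clp against no named treatment. Over all features 9.77% rose and 6.83% fell, so these counts are near the background. Pcsk6, a convertase that activates corin, fell by 0.58 on the log2 scale (adjusted p 0.0157), and Atrn, needed for agouti signalling, rose by 0.68 (adjusted p 0.0199), each the same way in 4 of 4 pairs. The median of the 9 genes was 0.26, against 0.01 over all features.

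The promoter of Corin, the member that was called, is shown with that of Crabp1, which was highest on the 3 arrays where Corin was lowest. Both are the 250 bases before the gene start in the RefSeq table (build GRCm38.p6), written 5′ to 3′ along the gene. Capitals mark matches on either strand to CAGAC, the core of the Smad binding element, and GGCGCC, a Smad motif of Bmp signalling. Corin lies at chr5:72504541-72504790 on the minus strand and Crabp1 at chr9:54764498-54764747 on the plus strand.
Corin: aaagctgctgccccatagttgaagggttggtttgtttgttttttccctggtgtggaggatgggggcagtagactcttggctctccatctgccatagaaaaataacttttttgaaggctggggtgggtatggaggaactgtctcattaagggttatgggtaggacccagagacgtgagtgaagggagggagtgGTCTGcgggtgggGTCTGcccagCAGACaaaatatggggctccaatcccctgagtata
Crabp1: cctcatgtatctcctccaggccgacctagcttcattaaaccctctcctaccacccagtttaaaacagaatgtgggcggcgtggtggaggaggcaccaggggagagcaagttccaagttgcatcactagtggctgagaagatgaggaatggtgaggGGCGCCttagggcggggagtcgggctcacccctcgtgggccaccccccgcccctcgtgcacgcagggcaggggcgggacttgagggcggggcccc
The Corin window held CAGAC 3 times and the Crabp1 window held GGCGCC 1 time. Among the other members, CAGAC was also in the windows of Hgf and GGCGCC in a window of Alpl. Of 32851 such windows in the table, 42.2% held CAGAC and 9.59% held GGCGCC. The table had 10 windows for 7 of the 10 members (Corin, Crabp1, Alpl, Prom1, Sox2, Vcan and Hgf). The Tcf/Lef core CTTTGA was in none of the 10 windows and in 13.8% of all windows, and its other form CTTTGT was in the windows of Sox2 and Alpl and in 16.5% of all. A match is a description of the letters and was not tested for binding.

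Alpl and Prom1 are surface markers of the papilla. Alpl encodes tissue-nonspecific alkaline phosphatase, long used to stain papillae, and its log2 ratio ranged from -0.06 to 0.90, highest on the wt array with no named treatment at 90 d. The clp arrays lay between 0.26 and 0.52 and inside the range of -0.04 to 0.90 of the arrays with no named treatment. The difference was 0.00 ± 0.20 with clp (95% interval -0.47 to 0.46, limma adjusted p 0.992) and -0.26 ± 0.20 with tpa (adjusted p 0.453). Without the Eng+/- array with no named treatment at 90 d, the tpa difference of Alpl was -0.54 with an adjusted p of 0.0134, so that array decided whether Alpl was called.

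Prom1 encodes prominin 1 (CD133), a membrane protein of dermal papilla cells in mouse. Its log2 ratios in Eng+/- were 0.55, 0.48, 0.10, 0.89, 0.46 and 0.09 for no named treatment, clp and tpa, 50 d before 90 d in each. The wt values in the same order were 0.24, 0.21, -0.15, 0.12, 0.37 and 0.07. Prom1 was higher in Eng+/- in 6 of 6 pairs, by 0.02 to 0.77, but the genotypes overlapped over the arrays. The difference was 0.29 ± 0.10 (95% interval 0.05 to 0.52) and did not pass, with an adjusted p of 0.534 in limma. The other Prom1 probe was well above background in Cy5 on 3 of 12 arrays and in Cy3 on 0, so its difference is not used.

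Sox2 and Trps1 encode transcription factors. Sox2 marks the papillae of guard, awl and auchene follicles in mouse. Its log2 ratio was 0.40 to 0.50 on the arrays with no named treatment and -0.04 to 0.36 on the clp arrays, and these groups did not overlap. The share of all features whose groups separate this way was not counted, so the separation is a description only. The clp difference of -0.24 ± 0.10 did not pass (limma adjusted p 0.147), and Sox2 was lower in 4 of 4 pairs. Sox2 was well above background on 7 of 12 arrays, 2 of 4 with clp, 2 of 4 with no named treatment and 3 of 4 with tpa, and the pool channel was not well above background on any, so these ratios compare values near the detection limit.

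Trps1 encodes a GATA-type zinc finger repressor, and in humans its loss causes sparse hair. On its brightest probe the log2 ratios of Eng+/- at 50 d, then 90 d, were 0.46 then -0.63 without a named treatment, -0.20 then -1.15 under clp, -1.51 then -0.39 under tpa. Those of wt in the same order were 0.15 then 0.49, 0.64 then 0.31, -0.83 then 0.20. Trps1 was lower in Eng+/- in 5 of 6 pairs, the pair with no named treatment at 50 d being the exception, and the genotypes overlapped. The difference of -0.73 ± 0.20 (95% interval -1.20 to -0.26) did not pass, with an adjusted p of 0.534. Without the tpa 50 d pair it was -0.74. With tpa against no named treatment the difference was -0.75 ± 0.25 (adjusted p 0.139).

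The 3 probes of Trps1 disagreed on the treatments. The brightest probe and the dimmest of the 3 gave -0.22 ± 0.25 and -0.28 ± 0.35 for clp against no named treatment. The probe A_55_P2005585 gave 1.66 ± 0.36, with an adjusted p of 0.0239 over all probes tested. On that probe the 4 arrays with no named treatment read -2.80 (Eng+/-) and -2.54 (wt) at 50 d and -1.57 and -2.63 at 90 d, whereas the clp arrays in that order read -0.78, 0.04, -1.86 and -0.30, with overlap through the Eng+/- arrays at 90 d. For tpa against no named treatment the same probe gave 1.09 ± 0.36, opposite in sign to the -0.86 ± 0.35 of the dimmest probe. All 3 carry the same transcript accession in the files, and which part of the transcript each reads was not analysed here. The difference of Trps1 from no named treatment therefore depends on the probe, while all 3 probes gave a negative genotype difference, of which none passed.

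**Figure D2:**
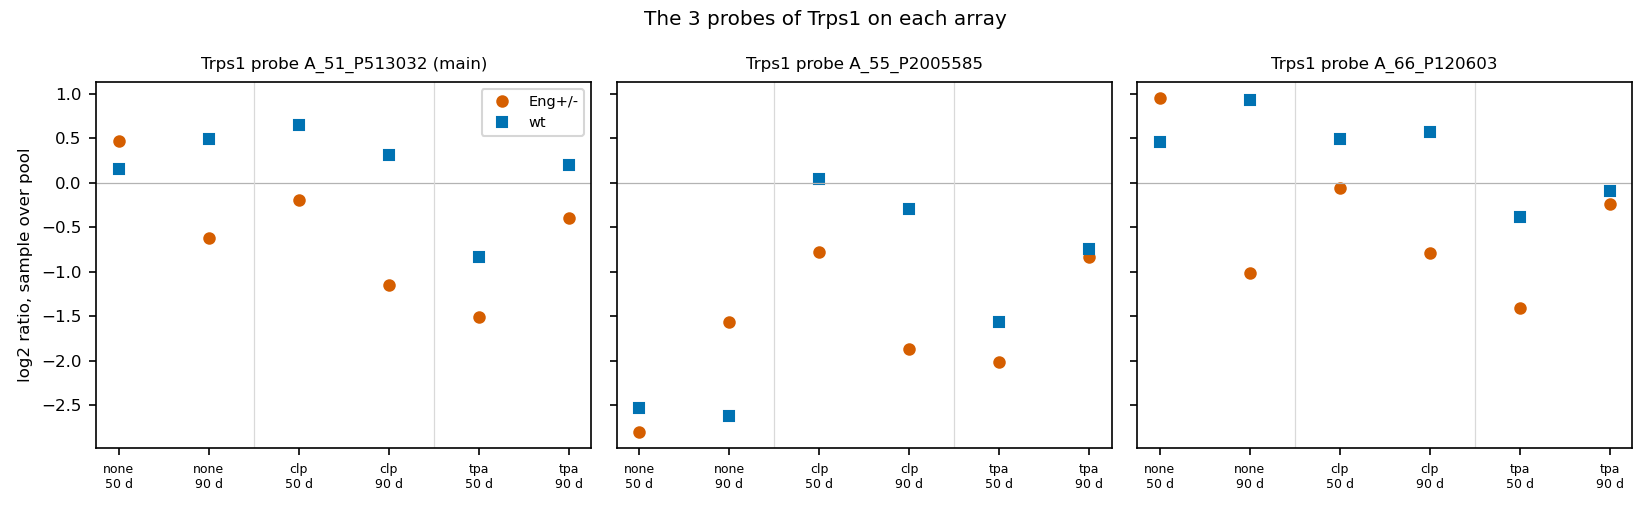
Each panel shows 1 of the 3 Trps1 probes, from brightest to dimmest, with the log2 ratio of sample over pool against the 6 conditions, circles for Eng+/- and squares for wt. On the middle panel the arrays with no named treatment lie between -2.80 and -1.57, whereas on the others most of them lie above 0.

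Crabp1 encodes a cytoplasmic protein that binds retinoic acid. Under tpa its log2 ratio was 1.02 in Eng+/- against 0.65 in wt at 50 d, then 0.59 against 0.45 at 90 d. In the clp arrays it was 0.31 against 0.24 at 50 d, then 0.42 against 0.14 at 90 d. Without a named treatment it was -0.30 against -0.20 at 50 d, then 0.68 against -0.41 at 90 d. All 4 tpa arrays lay above all 4 clp arrays, and 3 of the 4 arrays with no named treatment lay below every other array. How many of all features are ordered this way was not counted, so these orders are a description only. The difference of tpa from no named treatment was 0.74 ± 0.18 (95% interval 0.32 to 1.15), higher in 3 of 4 pairs, and did not pass (limma adjusted p 0.106). Without the Eng+/- array with no named treatment at 90 d, the only high one of its level, it was 0.97 with a limma adjusted p of 0.0021. The clp difference was then 0.57 with a limma adjusted p of 0.0103. Removing that array let 5776 features pass for tpa and 7044 for clp, against 0 and 4164 of 25085 with it. Of 15 retinoid pathway genes, 1 rose and 1 fell with clp against no named treatment, beside 9.77% and 6.83% of all features. These counts are near the background, with a list median of 0.02 against 0.01 over all features. Rarb, a retinoic acid receptor, rose by 0.35 (limma adjusted p 0.038) and Dhrs3, which reduces retinal, fell by 0.44 (limma adjusted p 0.0211). Stra6, the membrane transporter of retinol, was 2.08 higher with clp than with tpa (adjusted p 0.041).

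Vcan encodes versican, the large proteoglycan of the papilla matrix. On its brightest probe the log2 ratio was below 0 on all 12 arrays. It ran from -1.62 on the wt array with no named treatment at 90 d to -0.87 on the wt clp 50 d array, and the treatment levels overlapped. The pool holds all conditions, so values below 0 on every array are not read here as less Vcan RNA than in the pool. The clp difference was 0.22 ± 0.16 (limma adjusted p 0.357) and the genotype difference 0.08 ± 0.13 (adjusted p 0.885). A second probe, annotated to another transcript of Vcan, read from -0.10 to 1.01 and was 0.80 ± 0.35 higher at 90 d than at 50 d with tpa (adjusted p 1 over all probes, not passed), where the brightest probe gave 0.13 ± 0.23. The other Vcan probe was not well above background on any array. Of 13 genes of versican and hyaluronan matrix tested, 1 rose and 1 fell with clp, beside 9.77% and 6.83% of all features. These counts are near the background. Fbn1, which encodes fibrillin 1, fell by 1.02 (limma adjusted p 0.0113) and Hyal2, a hyaluronidase, rose by 0.64 (limma adjusted p 0.0167).

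Rspo2 and Rspo3 encode R-spondins, which bind Lgr receptors and remove the Wnt receptor ligases Rnf43 and Znrf3 from the cell surface. In the clp arrays the log2 ratio of Rspo2 was 0.97 in Eng+/- against 1.82 in wt at 50 d, then 0.61 against 1.17 at 90 d. Without a named treatment it was 0.92 against 0.41 at 50 d, then 0.53 against 0.69 at 90 d. Under tpa it was 0.56 against 0.46 at 50 d, then 1.39 against 1.27 at 90 d. The highest array was wt with clp at 50 d, and the treatment levels overlapped. The clp difference was 0.50 ± 0.21, higher in 4 of 4 pairs, and did not pass (limma adjusted p 0.13). The pool channel was not well above background on any array for Rspo2, so its ratios rest on a dim denominator.

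Rspo3 ranged from -0.14 on the wt clp 90 d array to 1.04 on the Eng+/- clp 90 d array, so its extremes fell in 1 pair of the same treatment and day. Its difference was 0.05 ± 0.26 with clp (95% interval -0.54 to 0.65) and -0.23 ± 0.26 with tpa (95% interval -0.83 to 0.36), and intervals this wide leave changes of such size undetectable with 12 arrays. Among 11 R-spondin receptors and Wnt partners, Lgr5, a receptor that marks hair follicle stem cells, rose with clp against no named treatment by 0.79 (adjusted p 0.0285) and was 1.01 higher with clp than with tpa (adjusted p 0.0215). Lrp5, a Wnt co-receptor, was 0.98 higher with clp than with tpa (adjusted p 0.0305). The other genes of this list did not pass in these comparisons. Over all features, 9.77% rose with clp against no named treatment and 3.17% were higher with clp than with tpa.

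Hgf encodes hepatocyte growth factor, the ligand of the receptor Met. Its log2 ratio lay between -0.51 and -0.03, the spot was dim with a median Cy5 signal of 103.5, and it was well above background on 7 of 12 arrays, 1 of 4 with clp, 2 of 4 with no named treatment and 4 of 4 with tpa. The clp difference was -0.17 ± 0.11 (limma adjusted p 0.283) and the clp arrays overlapped with the others. Of 9 genes for the Hgf receptor and Hgf processing, 2 rose and 1 fell with clp against no named treatment. Over all features 9.77% rose and 6.83% fell. Spint1, an inhibitor of the proteases that activate Hgf, rose by 1.11 (adjusted p 0.0155), St14, which encodes matriptase, rose by 0.94 (adjusted p 0.0182), and Plau, the urokinase-type plasminogen activator, fell by 0.65 (adjusted p 0.0455), each the same way in 4 of 4 pairs. Spint1 and St14 are genes of epithelial cells.

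**Figure D3:**
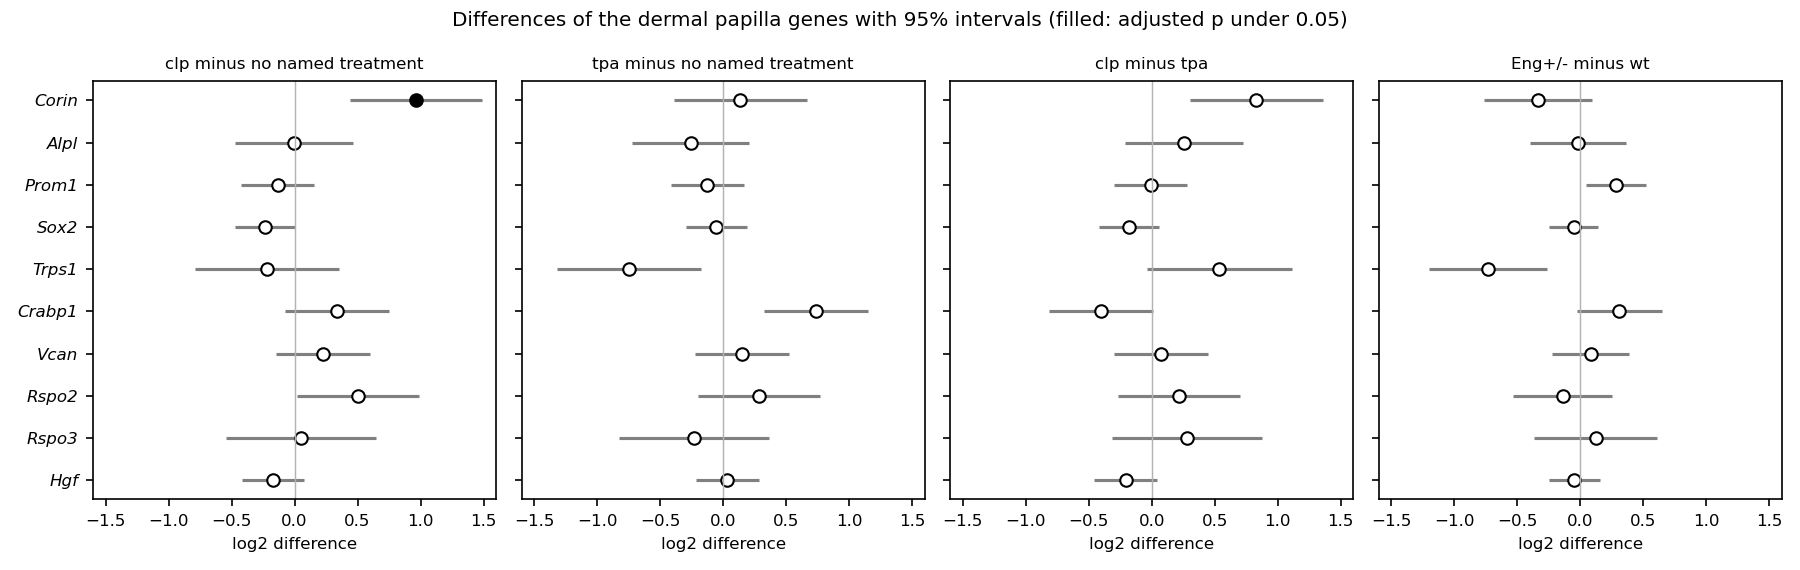
Points are log2 differences of the 10 genes in 4 comparisons, bars are 95% intervals of the limma model over 12 arrays, and filled points passed at an adjusted p under 0.05. The only filled point is Corin with clp against no named treatment at 0.96, and the interval of Trps1 for genotype lies below 0 without passing.

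No member was called for genotype, for tpa against no named treatment, for clp against tpa or for day within any treatment level. In limma 0% of features passed for genotype, for tpa against no named treatment and for each day comparison, although 2312 had an unadjusted p under 0.05 for genotype and 6131 for tpa. For clp against tpa 7.2% of features passed, 3.17% higher and 4.03% lower, and 0 of 10 members. The comparisons of clp and of tpa share the 4 arrays with no named treatment, so their values are not independent.

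The day differences of 7 genes had opposite signs with clp and with tpa in both genotypes: Corin, Alpl, Vcan, Prom1, Trps1, Rspo2 and Hgf. The same held for 25.6% of all features tested, and since the members share their 8 arrays, 7 of 10 was not tested against that share. Corin was lower at 90 d than at 50 d with clp, by -1.03 and -0.55 in the pairs, and higher with tpa, by 0.70 and 0.95. Trps1 differed by -0.95 and -0.33 with clp and by 1.03 and 1.12 with tpa. Rspo2 differed by -0.64 and -0.36 with clp and by 0.81 and 0.83 with tpa. The test of whether the day difference varies with treatment gave unadjusted p of 0.0228 for Corin, 0.0177 for Trps1, 0.0369 for Rspo2 and 0.0247 for Prom1, and adjusted p of 0.763 to 0.775 for these genes, so none passed. With tpa the 50 d pair is the one whose Eng values go against the genotype labels.

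Other genes of the dermal papilla gave 6 higher and 1 lower of 29 tested with clp against no named treatment. Over all features 9.77% were higher and 6.83% lower. The list median was 0.09, against 0.01 over all features. Lef1, a Wnt effector that hair matrix cells also express, rose by 1.52 (adjusted p 0.0115), Wif1, a secreted Wnt inhibitor, rose by 1.22 (adjusted p 0.0194), and Fgf7, a papilla growth factor, fell by 0.95 (adjusted p 0.012). Against tpa, 5 of the 29 were higher and 2 lower, beside 3.17% and 4.03% of all features. Lef1 was higher by 1.38 (limma adjusted p 0.015). The growth factor Igf1 and the receptor Pdgfra, a general fibroblast marker, were lower, by -1.51 and -0.97 (limma adjusted p 0.0151 and 0.0143).

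Genes of other cell types were counted in the same comparison, in which 9.77% of all features rose and 6.83% fell. Of 11 fibroblast genes tested 6 fell against no named treatment, with list medians per array of -0.94 to -0.26 with clp and 0.12 to 0.42 with no named treatment. Of 9 macrophage genes 5 fell, with medians of -1.05 to -0.51 against 0.16 to 0.62. Of 12 cell cycle genes 6 rose, Mki67 by 1.06 (adjusted p 0.0217), and among 17 genes of the hair shaft or its inner sheath 2 rose, Krt82 by 2.49 and Dsg4 by 1.56 (adjusted p 0.015 and 0.0153). Of 9 Schwann cell genes 1 rose and 3 fell, and of 10 genes of Merkel cells, which also express Sox2, 1 fell. Foxn1, a hair matrix transcription factor, rose in 4 of 4 pairs as the 1 of 9 hair matrix genes that passed (adjusted p 0.0137). Eng itself rose by 1.55 with clp (limma adjusted p 0.0236), while Tek, an endothelial receptor, fell by 0.48 (limma adjusted p 0.0327). The call for Eng was kept in 16 of 22 alternatives, with limma adjusted p up to 0.112. The counts called for hair shaft, hair matrix and Merkel cell genes are close to the shares over all features. All 17 hair shaft and all 9 hair matrix genes had positive differences, with medians of 2.15 and 0.74, against 0.01 over all features. Merkel cell genes had a median of -0.01. The hair shaft medians per array were -1.21 to 1.08 with clp and -6.69 to 0.47 with no named treatment, so they overlapped. In these 8 lists, no gene was below background on all 12 arrays. In bulk RNA fewer cells of a type and less RNA per cell cannot be told apart, and the part of these cell types in the result for Corin was not tested.

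The log2 ratios of hair genes varied far more than those of the papilla genes. Of the latter, Corin, Sox2, Hgf and Rspo2 are dim spots, and the offset of 50 compresses their ratios. How far the offset sets this contrast was not tested. The median log2 ratio of the 17 hair genes was -6.69 on the Eng+/- array with no named treatment at 90 d, -5.76 and -4.86 on the arrays labelled wt and Eng+/- with tpa at 50 d, and between -1.64 and 1.08 on the other arrays. Those 3 arrays were the 3 lowest for Corin, at -0.37, -0.22 and -0.01, and the 3 highest for Crabp1, at 0.68, 0.65 and 1.02. For Trps1 they were among the 4 lowest and for Rspo2 they lay between 0.46 and 0.56, whereas the wt array with no named treatment at 50 d was lower still, at 0.41, with a hair median of -0.32. Over the 12 arrays Corin spanned 2.10 on the log2 scale and Crabp1 1.43. In the authors' processed signals, without the offset, the log2 ratio of Corin ran from -1.35 to 4.65. The same RNA, slide and scan underlie both measures on an array, and these orders are a description without a test.

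**Figure D4:**
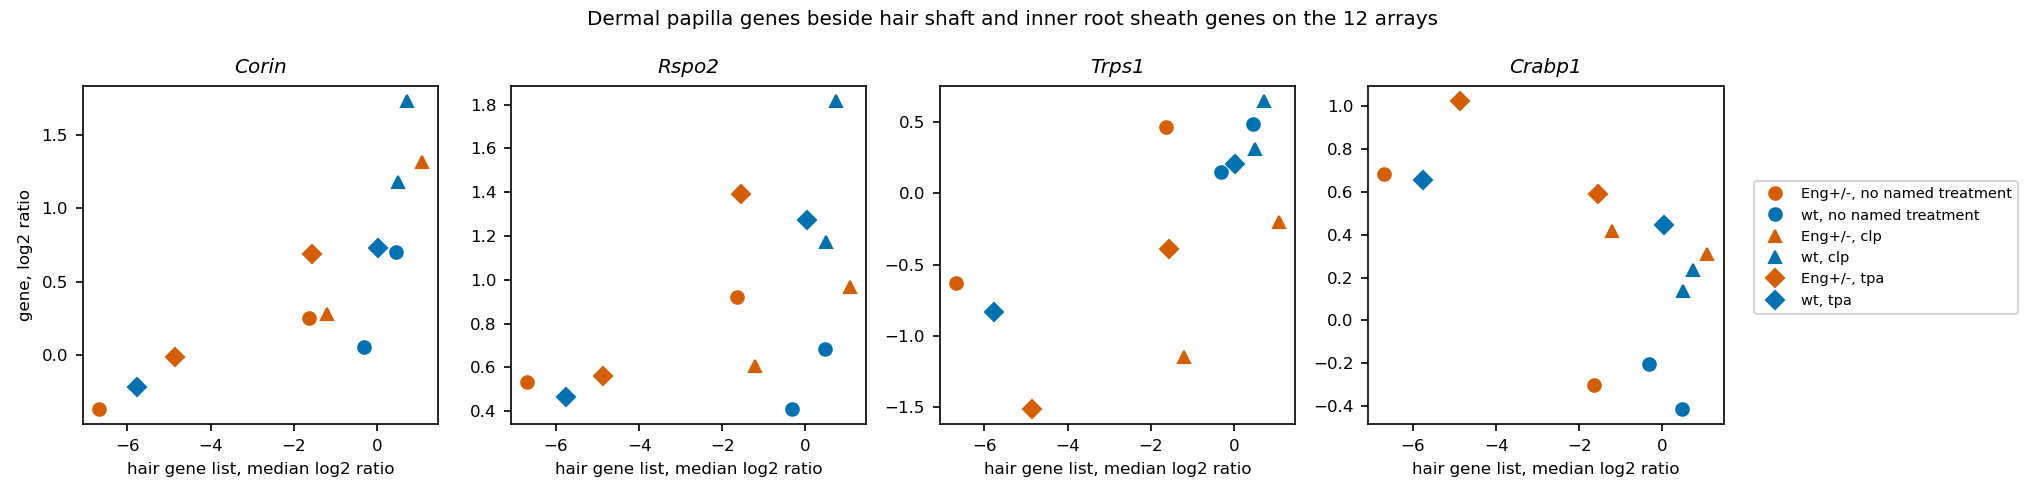
Each point is 1 array, with the median log2 ratio of 17 hair shaft and inner root sheath genes on the horizontal axis and the log2 ratio of 1 gene on the vertical axis, whose range differs between panels. The 3 arrays with hair medians of -6.69 to -4.86 are the lowest for Corin and the highest for Crabp1.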

How the data were processed

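The deposited scanner files hold foreground and background intensity of both channels, median signals per the file headers (Feature Extraction 10.7.3.1, array design 026655, probe annotation mm9), while the submitters' processing notes name version 10.0. The authors' processed signals are background-subtracted and dye-normalized intensity values, per the file headers. The authors' value table gives log10 ratios of Cy5 over Cy3, equal to the deposited scanner ratios on all 44397 spots. Scale and direction follow from that match, with Cy5 as the sample per the labels. The series text describes other dyes and another scanner, and the array labels and headers were followed.

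Signals were processed in R 4.3.3 with limma 3.58.1 (normexp with an offset of 50, loess within arrays, control and outlying spots at weight 0). A few spots with very high local background distorted normexp on several arrays. After these intensities were seen, local backgrounds that were marked non-uniform or above 2 times the array's median were set to that median (0 to 30 Cy5 and 0 to 111 Cy3 spots per array), and the lowest 5% of Cy5 signals, up to 680 before, then ended between 61 and 68.2 on every array. Of 39429 probes, 975 with an outlier flag were left out and 30498 above background in Cy5 on at least 2 arrays were tested. Probes were named by accession through a RefSeq table of another build, so no gene coordinates of probes are given. The brightest probe stood for each gene, and unnamed probes were grouped by their own identifier (25085 features). The limma model (eBayes with trend, 5 residual and 3.1 prior degrees of freedom) held genotype and 6 conditions, and a second one all interactions of pairs of factors. It was tested on simulated data. Errors are standard errors of the model, and the number of arrays limits precision. Named are all members, Eng, and in each other list up to 3 called genes with the smallest p. The members and lists were chosen with earlier results of these data known. Alternatives changed background, normalization, filter, variance model, probe and arrays. Figures were drawn with matplotlib 3.10.9.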

Additional observations from a re-analysis of the deposited data

Results flagged for a closer look

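Trps1 on the wt tpa 50 d array, at -0.83, lay far below the other 5 wt arrays, the 1 value found outlying among 50 combinations of gene and group checked. Chance flags about 1 in 20 groups. The library is of the pair in which Eng goes against the genotype labels.

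Several day differences (90 d minus 50 d) had opposite signs between treatment levels in both genotypes. The day difference with tpa minus that with clp was 1.62 for Corin, 1.72 for Trps1, 1.32 for Rspo2, 0.475 for Vcan, -0.363 for Alpl, -0.36 for Hgf and -0.863 for Prom1. For Prom1 the day difference with clp minus that with no named treatment was 0.575. The limma test over all 3 treatment levels gave adjusted p of 0.763 to 0.929 for these 7 genes, so none passed, and the treatment levels lie on different slides.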

How the results depend on the processing

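No paired analysis was possible with a replicate number as block, because the labels give none. The model itself paired the genotypes by treatment and day, and where an array was left out its partner was assumed to vary like the others. The 12 arrays limit all results, and dim spots (Corin, Sox2, Hgf, Rspo2) have compressed ratios. Counts of called features moved most. For clp against no named treatment they were 4164. They became 1677 with median centring and 2506 with local backgrounds as deposited (chosen after seeing the data). They were 0 without both wt arrays whose pool channel stood apart (no named treatment at 50 d, clp at 90 d). They were 2552 without the tpa 50 d pair, which left no tpa contrasts over both days. Members called were then 0 with median centring and 0 without both wt arrays, against 1. On those wt arrays the lowest 5% of Cy3 signals ended at 131 and 307 before local backgrounds were replaced, against at most 77.6 on the others. With Cy5 alone the 1 member called was Vcan (0.63, adjusted p 0.0478) instead of Corin, and tpa against no named treatment gave 304 features. For clp against tpa, median centring and Cy5 alone each called 1 member, Corin (1.48 and 1.65), and the count of features fell to 188 without both wt arrays, while 1 feature passed for day with no named treatment. Leaving out each array in turn gave 637 to 7044 features and 0 to 2 members for clp against no named treatment, 0 to 5776 and 0 to 2 for tpa, 203 to 3040 and 0 to 2 for clp against tpa, and 0 to 1098 and 0 to 1 for day with no named treatment, where Crabp1 (0.86, adjusted p 0.0425) passed without the wt 90 d array. Day gave 0 to 18 features with clp and 0 to 12 with tpa and 0 members in both, and genotype 0 and 0. Features passing for tpa reached 5776 without the Eng+/- array with no named treatment at 90 d, and for clp 7044 without it and 637 without the wt clp 50 d array. Of the 22 alternatives for Corin with clp, 12 kept the call (differences of 0.74 to 2.60, adjusted p 0.0164 to 0.0435) and 10 lost it (0.69 to 1.36, adjusted p 0.0519 to 0.179). Without Eng+/- or wt with no named treatment at 90 d, Corin and Crabp1 passed for clp against tpa, and Corin did without Eng+/- clp 90 d. The other Trps1 probe turned its tpa difference from -0.75 to 1.09; the cause was not tested. Of 70 member differences, 40 changed sign under some alternative, and only the Trps1 one had an unadjusted p under 0.05.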
